A study of Mus musculus with 31 samples.

Results

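Integrin and laminin genes were followed across the 3 sites at which a murine mesothelioma grew. The members were every gene whose symbol names an integrin alpha or beta subunit or a laminin alpha, beta or gamma chain, which gave 37 genes (26 integrins and 11 laminins) among the 54456 entries of the whole tumour table and 19 of them (13 integrins and 6 laminins) among the 12461 entries of the sorted cell table. Symbols alone set which genes of these families are members, but the families were chosen with earlier results of these data known. The cells were AB1-mCherry, a murine mesothelioma line that carries the red fluorescent protein mCherry and whose brightest cells had been sorted and grown before use. They were inoculated at the pleural (PL), peritoneal (IP) or subcutaneous (SC) site of female BALB/c mice of 12 weeks, which received no treatment, and tumours were taken on day 10. RNA was sequenced from whole pleural (n = 6), peritoneal (n = 5) and subcutaneous tumours (n = 5), and from CD45-negative, mCherry-positive cells sorted from pleural, peritoneal and subcutaneous tumours (n = 5 each), in 31 libraries. All groups share the line, the mCherry gene and the host strain, whole tumours hold host cells beside cancer cells, and tumours and sorted cells were prepared with different RNA kits.

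Integrins are cell surface receptors made of an alpha and a beta subunit, and the pair that forms decides which matrix protein or which other cell is bound. Laminins are secreted trimers of an alpha, a beta and a gamma chain that build the basement membrane, and integrins with the alpha3, alpha6 or alpha7 subunit bind them. Mesothelium, the tissue from which mesothelioma arises, rests on such a membrane in the pleural and the peritoneal cavity.

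Values are TPM, a measure of transcript abundance scaled by transcript length and library total, so that levels may be set side by side between genes of the same library. Read depth cannot be taken from TPM, and no counting interval is given. Fold changes are differences of log2(TPM + 1), abbreviated log2FC, which understate the ratio of transcripts near or below 1 TPM, and they come from limma with p-values adjusted over all genes tested in a table. The tables were normalized separately and were not tested against each other.

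Some libraries stood apart. Pleural whole tumours 3 and 5 had summed skeletal muscle markers of 308 and 638 TPM, against 5.62 to 8.96 TPM in the other pleural tumours, 5.72 to 10.8 TPM in peritoneal tumours and 63.4 to 1225 TPM in subcutaneous tumours. Sorted subcutaneous libraries 1 and 2 had summed leukocyte markers of 189.6 and 142 TPM, against 30.5 to 51.2 TPM in the other subcutaneous ones, 21.5 to 43.2 TPM in pleural and 26.2 to 41.7 TPM in peritoneal sorted cells. Sorted pleural library 5 had summed lung epithelium markers of 70.8 TPM, against at most 0.299 TPM in every other sorted library, and the highest neutrophil marker sum of the sorted libraries, at 18.4 TPM. Peritoneal whole tumour 4 had lung epithelium markers of 14.3 TPM, against at most 2.58 TPM in the other whole tumours. The mesothelial marker Msln was present in every sorted library, at 159 to 316 TPM in pleural, 208 to 304 TPM in peritoneal and 149.9 to 189 TPM in subcutaneous cells, while of the other mesothelial markers only Gata6 was listed there. No T and NK, dendritic, mast or Schwann cell marker was listed among the sorted cells.

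The common beta subunit Itgb1, which pairs with most of the matrix-binding alpha subunits, was the highest member in the mean of both tables. It averaged 277 ± 12.1 TPM in pleural (SD, n = 6), 276 ± 10.9 TPM in peritoneal (n = 5) and 269 ± 3.39 TPM in subcutaneous whole tumours (n = 5). In sorted cells it averaged 270.1 ± 21.6 TPM, 214 ± 48.5 TPM and 268 ± 20.6 TPM in pleural, peritoneal and subcutaneous cells (n = 5 each). Itgb1 gave 48.2 to 53.3% of the TPM of all beta subunits in whole tumours. In sorted cells that share was 62.5 to 72.7% in pleural, 42.6 to 57.0% in peritoneal and 51.7 to 58.9% in subcutaneous libraries, so that the pleural range lay above the others. Itgb1 itself passed the test in no comparison of either table. Under median-of-ratios scaling it was called in peritoneal against subcutaneous (log2FC -0.31, adjusted p = 0.0257) and in pleural against peritoneal sorted cells (log2FC 0.35, adjusted p = 0.0176).

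Among the alpha subunits that bind laminin, Itga6 was highest, at 65.9 ± 11.6 TPM in pleural, 69.0 ± 6.43 TPM in peritoneal and 70.1 ± 11.0 TPM in subcutaneous whole tumours. The corresponding chains of the ligand were led by Lamb1 (72.6 ± 2.80, 70.5 ± 8.82 and 66.4 ± 2.90 TPM) and Lamc1 (62.1 ± 5.31, 58.0 ± 6.44 and 62.5 ± 6.36 TPM), in the same order of sites. Sorted cells had Itga6 at 77.8 ± 9.63, 72.3 ± 21.8 and 80.2 ± 17.2 TPM, Lamb1 at 88.5 ± 10.6, 77.5 ± 22.3 and 87.9 ± 12.8 TPM, and Lamc1 at 62.1 ± 5.76, 61.6 ± 8.69 and 64.6 ± 9.43 TPM. Laminin alpha chains were lower than Lamb1 and Lamc1 in both tables, and Lama4 and Lama5 were the only alpha chains listed among sorted cells.

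Members of each role differed in whether they were listed among sorted cells. Of the 7 integrins of leukocytes, 3 (Itgam, Itgb2 and Itgb7) were listed among sorted cells, and none of the 4 collagen receptor alpha subunits was. A mean of at least 10 TPM was reached by 13 members in whole tumours and by 11 in sorted cells. Levels side by side show Itgb2, the beta subunit of leukocyte integrins, at 67.0 to 119 TPM in whole tumours and at 1.08 to 29.6 TPM in sorted cells, and Itgam, which pairs with it on myeloid cells, at 35.5 to 78.0 TPM and 0.285 to 18.0 TPM. The highest sorted values of Itgb2 (29.6 and 20.2 TPM) and of Itgam (18.0 and 11.8 TPM) were those of subcutaneous libraries 1 and 2.

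**Figure D1:**
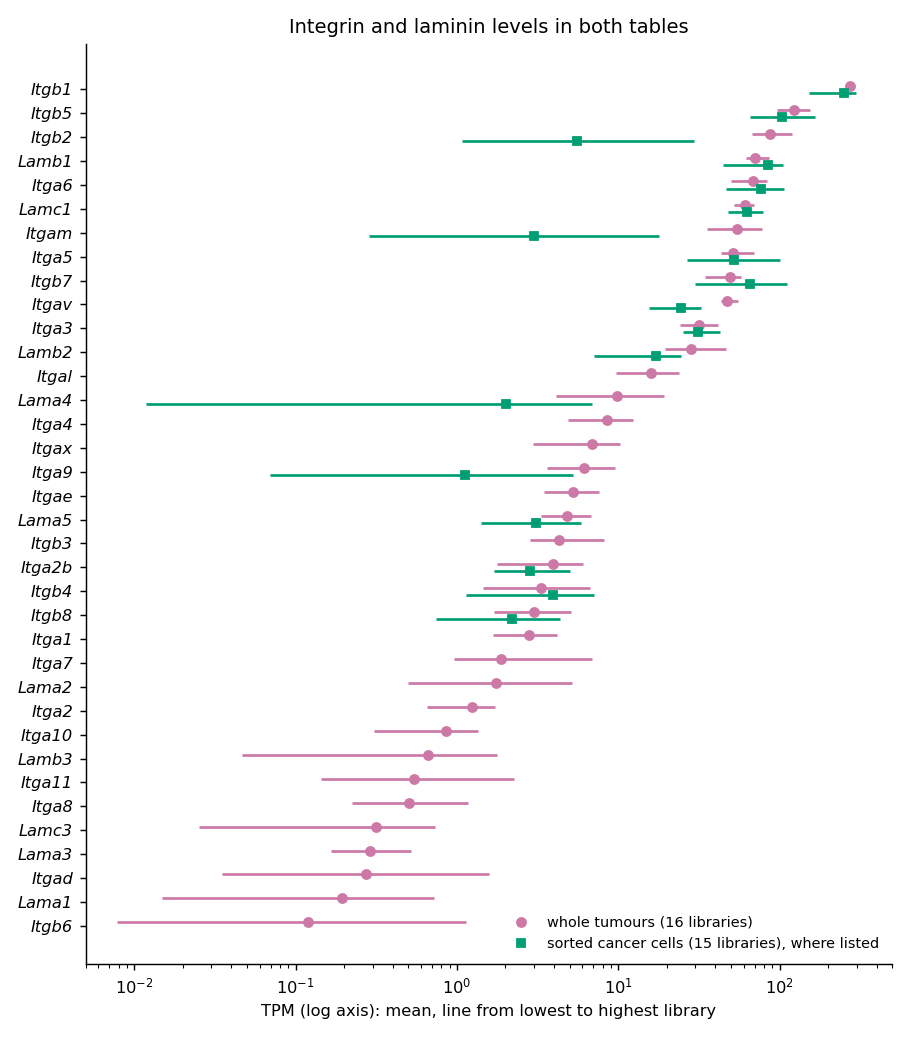
Mean TPM of integrin and laminin genes (rows) on a log axis, over the 16 whole tumour libraries (circles) and the 15 sorted cell libraries (squares, where listed), with lines from the lowest to the highest library. Itgb1 stands at the top of both, and Itgb2 and Itgam lie lower in sorted cells than in whole tumours; the tables were normalized separately and their difference was not tested.

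In whole tumours 29 members were tested among 15054 genes, and in sorted cells 18 members among 12357 genes, after a filter that asked for 1 TPM or more in 5 or more libraries. In pleural against subcutaneous whole tumours 4 of the 29 members passed an adjusted p of 0.05, where 12.8% of all genes tested passed (9.40% higher and 3.40% lower). Itga3, Itga4 and Itgb8 were higher and Itgb3 was lower. In peritoneal against subcutaneous whole tumours 4 of 29 passed, where 12.2% of all genes passed (8.52% higher and 3.64% lower); Itga3 and Itga4 were higher, and Itgax and Itgb3 were lower. No member passed in limma between pleural and peritoneal whole tumours, where 0.0531% of all genes passed (0.0266% in each direction) and 2 members had an unadjusted p below 0.05. These shares of members were near those of all genes. Groups without overlap were seen for 2, 3 and 0 of the 29 members in these comparisons, where 7.76%, 12.5% and 1.14% of all genes had them. Under median-of-ratios scaling the members called were 3 higher and 2 lower in pleural, and 1 higher and 4 lower in peritoneal tumours, each against subcutaneous ones. With that scaling 10.4% and 10.3% of all genes passed, and 46.0% and 45.5% of those were higher.

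In sorted cells 2 of 18 members, Lama4 and Itgb5, were lower in pleural than in subcutaneous cells, where 1.64% of all genes passed (0.397% higher and 1.25% lower). Lama4 passed the filter only through the subcutaneous libraries, and its calls in both comparisons with them carry that limit. In peritoneal against subcutaneous cells 5 of 18 passed, where 11.1% of all genes passed (4.75% higher and 6.33% lower); Itgb7 was higher, and Lama4, Itgb8, Itgb5 and Itga5 were lower. In pleural against peritoneal cells 4 of 18 passed, where 9.96% of all genes passed (4.45% higher and 5.51% lower); among them Itga5 was higher, and Itgb7 and Itgb4 were lower. The median log2FC of the 18 members was -0.10, -0.34 and 0.17 in these comparisons, against -0.02, -0.03 and 0.00 over all genes tested. Groups without overlap were seen for 2, 5 and 2 members in the same order, where 3.11%, 9.48% and 9.57% of all genes had them. Comparisons of pleural and of peritoneal with subcutaneous samples share the subcutaneous libraries.

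**Figure D2:**
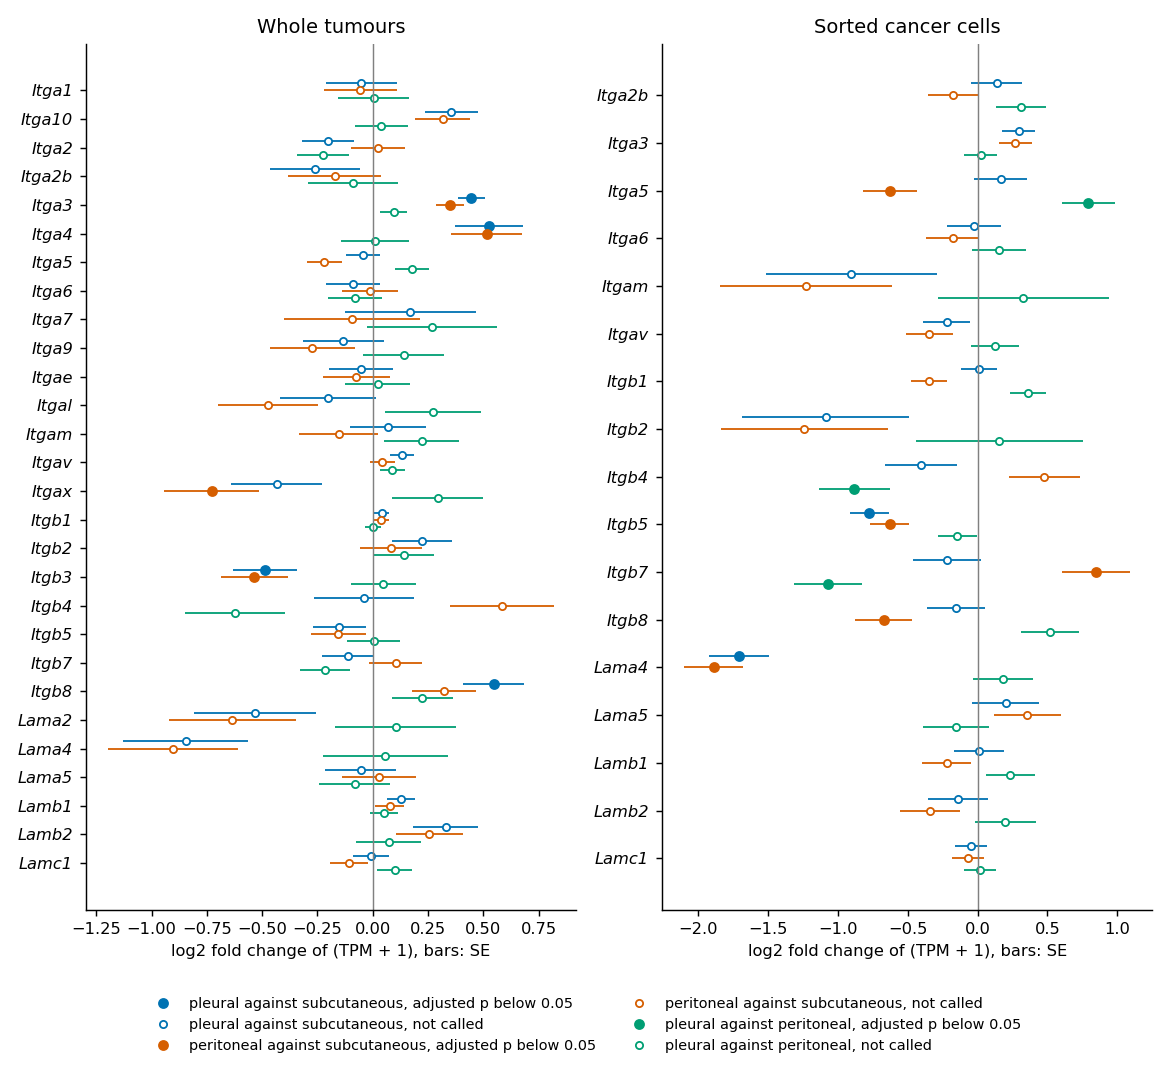
Log2 fold change of TPM + 1 (x axis, bars are SE) of members tested, in whole tumours (left) and sorted cancer cells (right), for pleural against subcutaneous, peritoneal against subcutaneous and pleural against peritoneal samples. Filled points have an adjusted p below 0.05; Lama4 in sorted cells lies farthest from 0, at -1.71 and -1.89.

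Promoters are shown for the called integrins that RefSeq's table of the GRCm38.p6 build holds with values in both tables, so that genes that moved alike or apart can be read side by side. Itgb5, Itgb8 and Itga5 were lower and Itgb7 was higher in the same comparison of sorted cells, and Itga3 was higher in both whole tumour comparisons. A RefSeq entry was found for 23 of the 37 members. Each line gives the 250 bases before the annotated start, 5′ to 3′ on the gene's strand, with the letters of a GC box, GGGCGG or its reverse complement, in capitals; of the 2 entries of Itga3, the outermost is shown.
Itga3 promoter (chr11:95076715-95076964, minus strand): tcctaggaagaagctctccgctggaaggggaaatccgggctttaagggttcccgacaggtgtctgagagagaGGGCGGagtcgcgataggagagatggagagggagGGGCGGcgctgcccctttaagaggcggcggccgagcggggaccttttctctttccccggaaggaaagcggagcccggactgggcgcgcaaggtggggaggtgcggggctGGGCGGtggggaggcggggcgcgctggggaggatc
Itga5 promoter (chr15:103366792-103367041, minus strand): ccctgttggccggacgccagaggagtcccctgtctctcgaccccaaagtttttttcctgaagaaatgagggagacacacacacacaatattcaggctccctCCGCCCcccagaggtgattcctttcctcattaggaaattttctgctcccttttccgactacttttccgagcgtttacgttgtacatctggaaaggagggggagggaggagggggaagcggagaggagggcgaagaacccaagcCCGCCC
Itgb5 promoter (chr16:33829415-33829664, plus strand): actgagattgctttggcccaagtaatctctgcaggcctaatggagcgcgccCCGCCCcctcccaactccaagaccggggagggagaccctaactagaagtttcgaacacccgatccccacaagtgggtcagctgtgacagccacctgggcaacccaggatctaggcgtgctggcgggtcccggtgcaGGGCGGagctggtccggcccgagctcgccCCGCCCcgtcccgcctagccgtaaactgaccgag
Itgb8 promoter (chr12:119238277-119238526, minus strand): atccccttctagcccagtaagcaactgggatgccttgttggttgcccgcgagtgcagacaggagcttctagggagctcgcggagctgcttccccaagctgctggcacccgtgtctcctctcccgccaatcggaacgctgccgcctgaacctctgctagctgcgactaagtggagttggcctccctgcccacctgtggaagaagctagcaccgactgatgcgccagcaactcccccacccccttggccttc
Itgb7 promoter (chr15:102231936-102232185, minus strand): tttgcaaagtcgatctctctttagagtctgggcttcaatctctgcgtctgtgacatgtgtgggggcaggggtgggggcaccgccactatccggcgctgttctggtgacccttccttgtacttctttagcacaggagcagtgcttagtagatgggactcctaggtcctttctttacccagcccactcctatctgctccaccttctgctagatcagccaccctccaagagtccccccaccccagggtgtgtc

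The GC box occurred 3 times in the Itga3 window, 3 times in that of Itgb5 and 2 times in that of Itga5, and these letters were not in the windows of Itgb7 and Itgb8. On either strand 32.7% of all 32851 RefSeq promoters held it. The AP-1 letters TGANTCA (6.75% of promoters), the TEAD letters GGAATG (12.6%) and the RUNX letters TGTGGT (14.0%) were also searched on both strands, and none lay in these 5 windows. A match describes the letters of a window and shows no binding. The bases just after the Itga5 window were not found near the start of a GENCODE transcript of that gene, unlike those of the other windows. The start of Itga5 is thus less certain.

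Among the laminin receptors, Itga3, whose alpha3 beta1 receptor binds the laminins of epithelial basement membranes, was higher at both cavity sites in whole tumours. It measured 30.7 TPM at the lowest, 34.6 TPM at the median and 41.6 TPM at the highest of the 6 pleural tumours. Peritoneal tumours had 31.9, 33.9, 32.5, 33.1 and 33.8 TPM, and subcutaneous tumours 24.1, 26.6, 25.9, 25.9 and 26.2 TPM. Every pleural and every peritoneal tumour lay above every subcutaneous one. The difference was 0.45 on the log2 scale in pleural (SE 0.06, adjusted p = 0.000512, limma) and 0.35 in peritoneal tumours (SE 0.06, adjusted p = 0.00387), both against subcutaneous ones. It passed in all 25 alternative settings of each comparison. Summed mesothelial markers had medians of 277 TPM in pleural (199 to 305 TPM) and 253 TPM in peritoneal (214 to 275 TPM) against 218 TPM in subcutaneous tumours (196 to 243 TPM). Of the 8 markers 6 were called higher in pleural (median log2FC 0.98) and 7 in peritoneal tumours (median log2FC 1.49), each against subcutaneous ones, Msln being called in neither, and their part in the result was not tested.

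Sorted cells had the same order of Itga3 means without a call. Pleural cells had 28.5, 38.3, 31.2, 33.9 and 34.3 TPM, peritoneal cells 42.8, 27.6, 33.1, 34.9 and 26.8 TPM, and subcutaneous cells 26.9, 28.9, 25.6, 25.3 and 27.7 TPM. The ranges overlapped in both comparisons with subcutaneous cells. The log2FC was 0.29 in pleural (SE 0.12, adjusted p = 0.327) and 0.27 in peritoneal cells (SE 0.12, adjusted p = 0.138), each against subcutaneous cells. The peritoneal difference was called under median-of-ratios scaling (log2FC 0.30, adjusted p = 0.0425) and quantile normalization (log2FC 0.33, adjusted p = 0.0271). It was also called without peritoneal libraries 2 and 5 together (log2FC 0.44, adjusted p = 0.0261), and in no other setting.

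Itgb4, the beta subunit that pairs with alpha6 and anchors epithelial cells through hemidesmosomes, was lower in pleural than in peritoneal sorted cells. Pleural cells had 1.34, 4.84, 1.14, 3.17 and 3.01 TPM, peritoneal cells 5.94, 5.30, 6.56, 7.03 and 2.90 TPM, and subcutaneous cells 3.17, 4.42, 3.59, 3.61 and 3.16 TPM. Peritoneal library 5 fell within the pleural range and the other 4 lay above it. The pleural minus peritoneal log2FC was -0.88 (SE 0.26, adjusted p = 0.0405). The call was lost without any of peritoneal libraries 1, 2, 3 and 4, pleural libraries 1, 3, 4 and 5 or subcutaneous libraries 3 and 5 (adjusted p 0.0506 to 0.0954). Whole tumours gave the same direction, with 1.45 to 4.70 TPM in pleural and 3.62 to 6.65 TPM in peritoneal tumours (log2FC -0.62, SE 0.23, adjusted p = 0.329). In GENCODE's annotation of GRCm38 an exon of Itgb4 overlaps one of B230344G16Rik on the opposite strand, over at most 130 bases. Since the strand setting is not given in the sources used here, reads of that stretch cannot be told apart.

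Itga6, the main partner of Itgb4, and Itga7, a laminin receptor known from muscle, passed in no comparison. Itga6 ranged over 50.2 to 83.2 TPM in whole tumours and 46.2 to 106 TPM in sorted cells. Itga7 was highest in pleural tumour 3, at 6.83 TPM, and was not listed among the sorted cells.

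**Figure D3:**
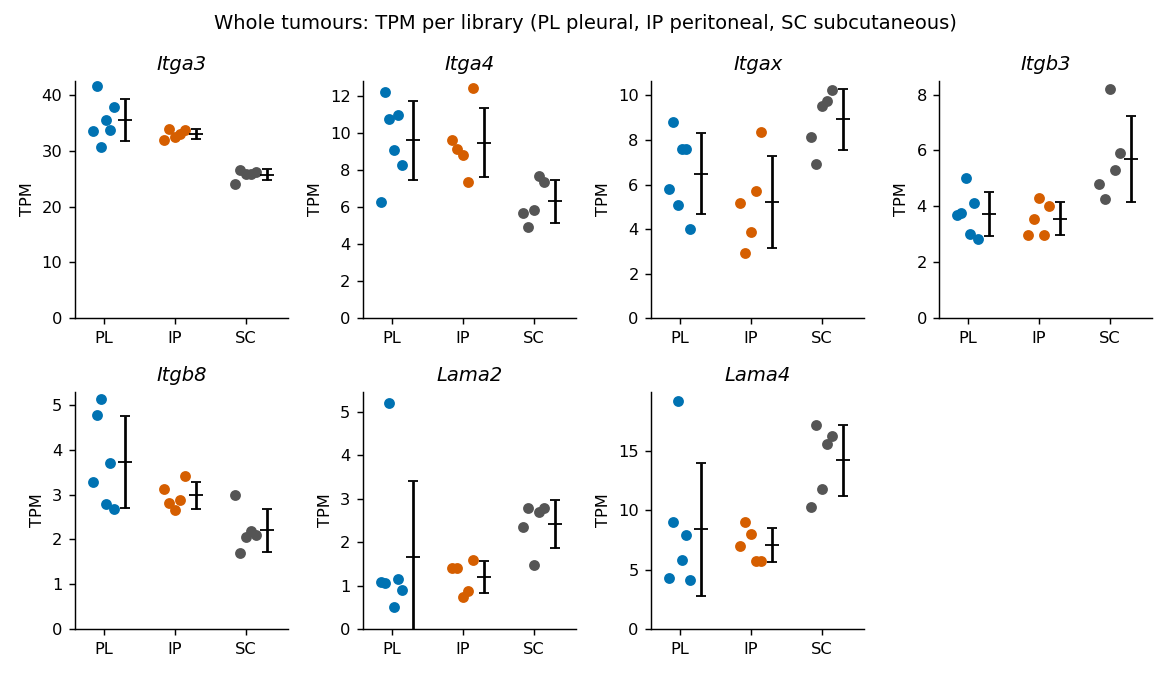
TPM of the members called in whole tumours, and of Lama2 and Lama4, in each pleural (PL, n = 6), peritoneal (IP, n = 5) and subcutaneous (SC, n = 5) library; bars are mean ± SD. The Itga3 values of both cavity sites lie above all subcutaneous values, and 1 pleural library is far above the others for Lama2 (5.20 TPM) and Lama4 (19.2 TPM).

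The receptors of matrix proteins with an arginine-glycine-aspartate motif, such as fibronectin and vitronectin, had Itgb5, Itga5 and Itgb8 among the genes called in sorted cells. Itgb5, whose alphav beta5 receptor binds vitronectin, was the highest of them. It measured 102, 75.2, 71.0, 65.7 and 91.5 TPM in pleural cells, 91.0, 73.3, 91.6, 100.6 and 88.6 TPM in peritoneal cells, and 165, 139, 166, 113 and 113 TPM in subcutaneous cells. No pleural or peritoneal library reached the lowest subcutaneous one. The log2FC was -0.77 in pleural (SE 0.14, adjusted p = 0.00668) and -0.63 in peritoneal (SE 0.14, adjusted p = 0.0107), each against subcutaneous cells. Both calls held without any single library. Without subcutaneous libraries 1 and 2 together, those with leukocyte transcripts, the log2FC was -0.68 (adjusted p = 0.110) in pleural and -0.53 (adjusted p = 0.0613) in peritoneal cells.

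Whole tumours did not show this difference as a call. Itgb5 averaged 119 ± 21.3 TPM in pleural, 119 ± 21.1 TPM in peritoneal and 131 ± 10.2 TPM in subcutaneous tumours. The log2FC was -0.15 (SE 0.12, adjusted p = 0.414) for pleural and -0.16 (SE 0.12, adjusted p = 0.419) for peritoneal against subcutaneous tumours. Itgav, the alpha subunit with which Itgb5 pairs, was not called in either table, with 43.3 to 55 TPM in whole tumours and 15.4 to 32.7 TPM in sorted cells.

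Itga5, the alpha subunit of the classical fibronectin receptor, was lowest in peritoneal sorted cells. Pleural cells had 61.2, 57.8, 58.0, 100.8 and 45.7 TPM, peritoneal cells 38.5, 27.6, 45.8, 44.2 and 26.5 TPM, and subcutaneous cells 50.7, 47.2, 60.5, 61.7 and 59.3 TPM. The peritoneal values lay below every subcutaneous value and overlapped only the lowest pleural one. The log2FC was 0.79 in pleural against peritoneal cells (SE 0.19, adjusted p = 0.0205) and -0.63 in peritoneal against subcutaneous cells (SE 0.19, adjusted p = 0.0465). The first call was lost without peritoneal library 2 (adjusted p = 0.0591), and the other without any of peritoneal libraries 1, 2 and 5, subcutaneous libraries 1, 3, 4 and 5 or pleural libraries 1, 2 and 3 (adjusted p 0.0511 to 0.123). Without peritoneal libraries 2 and 5 together, which had the lowest values, the log2FC was 0.54 (adjusted p = 0.108) in pleural against peritoneal cells and -0.37 (adjusted p = 0.238) in peritoneal against subcutaneous cells. In whole tumours Itga5 of every peritoneal tumour, at 43.1 to 51.0 TPM, lay below every subcutaneous tumour, at 52.0 to 58.8 TPM. The log2FC was -0.22 (SE 0.08, adjusted p = 0.0819), and the difference became a call without pleural tumour 3 (adjusted p = 0.00888). It was also called under median-of-ratios scaling (adjusted p = 0.0271), quantile normalization (adjusted p = 0.0446) and a fit of only those 2 sites (adjusted p = 0.0262).

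Itgb8, which pairs with alphav and activates latent TGF-beta, was called in different comparisons of the tables. In whole tumours it was higher at the pleural site, with 2.69 TPM at the lowest, 3.49 TPM at the median and 5.13 TPM at the highest pleural tumour, against 2.99, 1.69, 2.04, 2.18 and 2.11 TPM in subcutaneous tumours. The ranges overlapped through subcutaneous tumour 1. The log2FC was 0.55 (SE 0.14, adjusted p = 0.0204), and without subcutaneous tumour 2 it was 0.49 (adjusted p = 0.0642). Peritoneal tumours had 3.13, 2.82, 2.67, 2.87 and 3.42 TPM, with a log2FC of 0.32 against subcutaneous tumours (SE 0.14, adjusted p = 0.142).

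In sorted cells Itgb8 was lower at the peritoneal site. It measured 1.82, 0.738, 1.83, 1.82 and 0.784 TPM in peritoneal cells, against 3.47, 2.03, 3.10, 2.47 and 2.72 TPM in subcutaneous cells, with no overlap. The log2FC was -0.67 (SE 0.21, adjusted p = 0.0477). The call was lost without any of peritoneal libraries 2 and 5, subcutaneous libraries 1, 3, 4 and 5 or pleural libraries 3, 4 and 5 (adjusted p 0.0560 to 0.128), and the log2FC was -0.40 (adjusted p = 0.242) without peritoneal libraries 2 and 5 together. Pleural sorted cells had 4.34, 1.57, 1.97, 2.30 and 2.12 TPM, with a log2FC of -0.15 against subcutaneous cells (SE 0.21, adjusted p = 0.898).

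Itgb3, which pairs with alphav or, on platelets, with alphaIIb, was lower at both cavity sites in whole tumours and was not listed among the sorted cells. Pleural tumours had 2.84, 3.73 and 5.02 TPM at the lowest, median and highest. Peritoneal tumours had 2.99, 3.53, 4.30, 2.98 and 4.01 TPM, and subcutaneous tumours 4.80, 4.27, 8.21, 5.29 and 5.92 TPM. Pleural tumour 3 and peritoneal tumour 3 alone reached the subcutaneous range. The log2FC was -0.49 in pleural (SE 0.15, adjusted p = 0.0390) and -0.54 in peritoneal tumours (SE 0.15, adjusted p = 0.0333), each against subcutaneous ones. The pleural call was lost without any of pleural tumours 1, 2, 4 and 7 or subcutaneous tumours 3, 4 and 5 (adjusted p 0.0555 to 0.0885), and the peritoneal call without any of peritoneal tumours 1, 2 and 4 or subcutaneous tumours 3, 4 and 5 (adjusted p 0.0528 to 0.0755). Summed platelet markers were 5.84 to 19.4 TPM in pleural, 19.6 to 35.2 TPM in peritoneal and 22.8 to 100 TPM in subcutaneous tumours. Of these 6 markers 1 passed the filter, and it was called lower in pleural against subcutaneous tumours alone. Every pleural sum lay below every peritoneal one, while Itgb3 had a log2FC of 0.05 between these sites (SE 0.15, adjusted p = 0.922, limma). Subcutaneous tumour 2 had the highest platelet sum and the lowest subcutaneous Itgb3 value, 4.27 TPM. Macrophage markers summed to 1560 to 3192 TPM in pleural and 1245 to 2119 TPM in peritoneal against 2259 to 2876 TPM in subcutaneous tumours. The part of both marker groups in the result was not tested. In such bulk samples fewer cells of a type and less RNA per cell cannot be told apart.

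Itga8 and Itgb6, receptors known from smooth muscle and epithelium, did not pass the filter, with at most 1.17 and 1.13 TPM in any whole tumour. Itga2b, the alpha subunit of platelets, was tested in both tables and called in neither, at 1.77 to 6.05 TPM in whole tumours and 1.69 to 5.04 TPM in sorted cells. Of the collagen receptors Itga1, at 1.68 to 4.20 TPM, was the highest at each site in whole tumours, with 2.80 ± 0.980 TPM in pleural, 2.72 ± 0.531 TPM in peritoneal and 2.85 ± 0.435 TPM in subcutaneous tumours. Itga1, Itga2 and Itga10 were tested and not called, and Itga11 did not pass the filter. Itga10 had log2FC values of 0.36 (adjusted p = 0.0630) in pleural and 0.32 (adjusted p = 0.104) in peritoneal against subcutaneous tumours, and the pleural difference was called without pleural tumour 3 (log2FC 0.42, adjusted p = 0.0243) and without subcutaneous tumour 5 (log2FC 0.42, adjusted p = 0.0478).

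**Figure D4:**
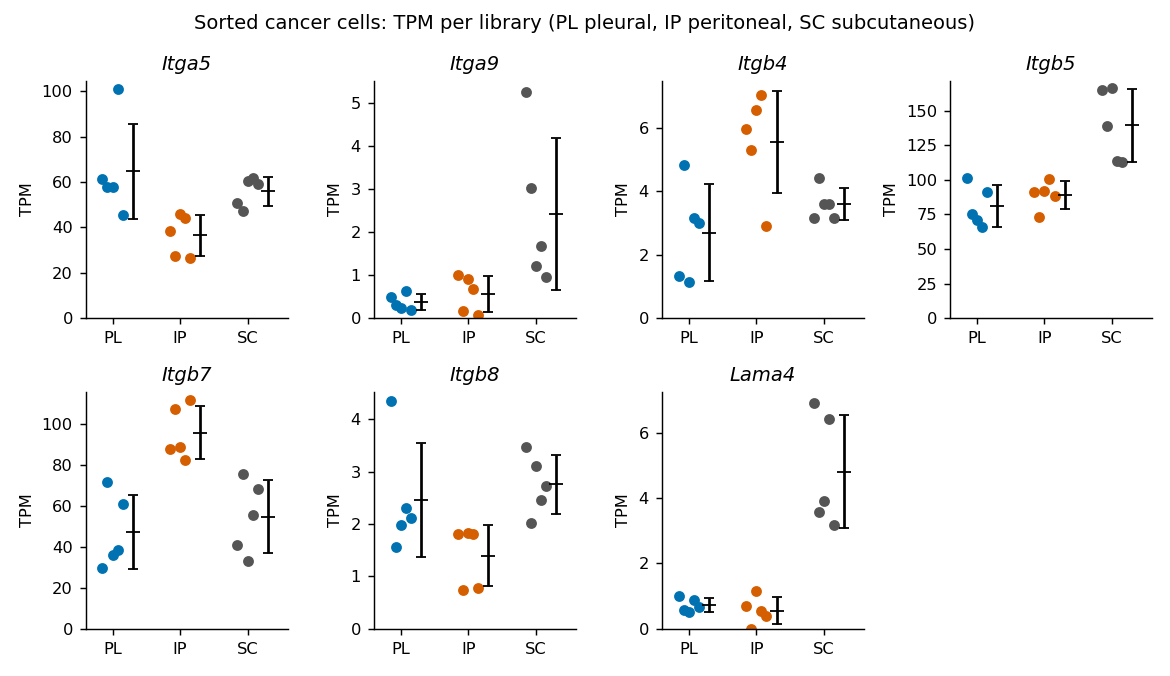
TPM of members called in sorted cancer cells, and of Itga9, in each pleural (PL), peritoneal (IP) and subcutaneous (SC) library (n = 5 each); bars are mean ± SD. Lama4 and Itgb5 are lower in every pleural and peritoneal library than in every subcutaneous one, and Itgb7 is highest in the 5 peritoneal libraries.

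Among the receptors that bind cell surface ligands, Itga4, the alpha subunit of the VCAM-1 receptor of leukocytes, was higher at both cavity sites in whole tumours. It measured 6.27, 9.90 and 12.2 TPM at the lowest, median and highest pleural tumour. Peritoneal tumours had 9.58, 9.12, 8.79, 7.33 and 12.4 TPM, and subcutaneous tumours 5.69, 4.91, 5.83, 7.69 and 7.33 TPM. Pleural tumour 1 and peritoneal tumour 4 fell within the subcutaneous range. The log2FC was 0.53 in pleural (SE 0.15, adjusted p = 0.0374) and 0.52 in peritoneal tumours (SE 0.16, adjusted p = 0.0480), each against subcutaneous ones. The pleural call was lost without any of pleural tumours 2, 3, 4 and 5 or subcutaneous tumours 1, 2 and 3 (adjusted p 0.0558 to 0.112), and the peritoneal call without any of peritoneal tumours 1, 2, 3 and 7, subcutaneous tumours 1, 2, 3 and 5 or pleural tumours 4 and 7 (adjusted p 0.0534 to 0.123). An exon of Itga4 overlaps one of Cerkl on the opposite strand in the GENCODE annotation.

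Leukocyte markers overlapped between the sites. Their sum was 461 to 690 TPM in pleural and 405 to 675 TPM in peritoneal tumours, against 552 to 772 TPM in subcutaneous tumours. T and NK cell markers summed to 67.1 to 139 TPM, 89.9 to 154 TPM and 97.1 to 158 TPM at the pleural, peritoneal and subcutaneous site, and the part of these markers in the result was not tested. Itga4 was not listed among the sorted cells.

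Itgax, which encodes CD11c of dendritic cells and macrophages, was lower in peritoneal tumours. Values were 5.15, 2.94, 3.87, 5.71 and 8.34 TPM in peritoneal against 8.13, 6.94, 9.54, 9.77 and 10.2 TPM in subcutaneous tumours. Peritoneal tumour 7 fell within the subcutaneous range and the other 4 lay below it. The log2FC was -0.73 (SE 0.22, adjusted p = 0.0390). The call was lost without any single subcutaneous tumour and without any of peritoneal tumours 1, 2 and 3 (adjusted p 0.0506 to 0.0992). Macrophage markers were lower in all peritoneal than in all subcutaneous tumours by the sums given with Itgb3, dendritic cell markers summed to 12.4 to 29.9 TPM against 17.7 to 30.8 TPM, and their part in the result was not tested. Pleural tumours, at 3.99 to 8.80 TPM, had an Itgax log2FC of -0.43 against subcutaneous ones (SE 0.21, adjusted p = 0.165).

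The remaining leukocyte integrins of whole tumours passed in no comparison. Itgb2, their common beta subunit, was the highest of the group at each site, with 94.3 ± 19.1 TPM in pleural, 84.8 ± 12.8 TPM in peritoneal and 79.8 ± 10.1 TPM in subcutaneous tumours. Itgam, Itgal and Itgae, which pair with Itgb2 or Itgb7, ranged over 35.5 to 78.0 TPM, 9.64 to 23.8 TPM and 3.48 to 7.63 TPM. Itgad did not pass the filter. In sorted cells Itgam and Itgb2 had log2FC values between -1.24 and -0.90 in pleural and in peritoneal against subcutaneous cells, with SE of 0.60 and 0.61 and adjusted p of 0.182 to 0.678.

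Itgb7, the beta subunit of the gut-homing receptor of lymphocytes, was high in sorted cells and highest at the peritoneal site. Pleural cells had 29.8, 71.6, 36.0, 38.4 and 60.8 TPM, peritoneal cells 88.1, 107, 88.8, 82.7 and 112 TPM, and subcutaneous cells 41.1, 75.7, 33.0, 55.6 and 68.5 TPM. Every peritoneal library lay above every pleural and every subcutaneous one. The log2FC was 0.85 in peritoneal against subcutaneous cells (SE 0.24, adjusted p = 0.0359) and -1.07 in pleural against peritoneal cells (SE 0.24, adjusted p = 0.0158). The call against pleural cells held without any single library. That against subcutaneous cells was lost without any of peritoneal libraries 2 and 5 or subcutaneous libraries 1, 3 and 4 (adjusted p 0.0583 to 0.0912). Without peritoneal libraries 2 and 5 together, which had the highest values, neither was called (log2FC 0.71, adjusted p = 0.149 in peritoneal against subcutaneous and log2FC -0.93, adjusted p = 0.0807 in pleural against peritoneal cells). Without subcutaneous libraries 1 and 2 together the log2FC was 0.91 (adjusted p = 0.0600) in peritoneal against subcutaneous cells.

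The alpha subunits with which Itgb7 pairs, Itga4 and Itgae, were not listed in the sorted table, and together they had 9.05 to 19.2 TPM in whole tumours. Itgb7 in whole tumours was 45.3 ± 5.75 TPM in pleural, 52.7 ± 4.67 TPM in peritoneal and 49.5 ± 8.78 TPM in subcutaneous tumours, with no call. Summed leukocyte markers of the sorted cells had medians of 29.0 TPM in pleural, 34.6 TPM in peritoneal and 51.2 TPM in subcutaneous libraries, with overlapping ranges, and their part in the result was not tested. No T and NK cell marker was listed.

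Itga9, the alpha subunit closest to alpha4, passed the filter in whole tumours alone, where it had 3.61 to 9.50 TPM and no call, and it was the higher of that pair in subcutaneous tumours, at 6.82 ± 1.54 TPM, with Itga4 higher at the pleural and peritoneal site. In sorted cells it measured 0.504, 0.313, 0.228, 0.644 and 0.192 TPM in pleural, 0.999, 0.171, 0.912, 0.673 and 0.0699 TPM in peritoneal and 5.26, 3.02, 1.21, 1.69 and 0.961 TPM in subcutaneous cells. Only the lowest subcutaneous library overlapped the highest peritoneal one. Tested without the filter, its log2FC was -1.19 (SE 0.28, adjusted p = 0.0450) in pleural and -1.04 (SE 0.28, adjusted p = 0.0276) in peritoneal against subcutaneous cells. Genes listed among sorted cells exceed 1 TPM in some library. For Itga9 only subcutaneous libraries did, and these calls carry that limit. The 2 highest values were those of subcutaneous libraries 1 and 2, which were high in leukocyte markers. Without both, a setting chosen after seeing the data, the log2FC was -0.73 (adjusted p = 0.243) in pleural and -0.58 (adjusted p = 0.123) in peritoneal against subcutaneous cells.

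Laminin alpha chains decide which laminin is formed and which receptor it binds. Lama4, the alpha chain of the laminin of blood vessel walls, showed the largest fold change of any member in sorted cells. It measured 1.02, 0.573, 0.508, 0.877 and 0.656 TPM in pleural cells, 0.686, 0.0118, 1.15, 0.541 and 0.404 TPM in peritoneal cells, and 6.90, 3.57, 3.92, 6.43 and 3.18 TPM in subcutaneous cells. The highest pleural or peritoneal value was below the lowest subcutaneous one. The log2FC was -1.71 in pleural (SE 0.21, adjusted p = 0.000183) and -1.89 in peritoneal (SE 0.21, adjusted p = 4.23e-05), each against subcutaneous cells. Both calls held in each of the 24 alternative settings that kept the gene, with a log2FC of -2.54 to -1.58 in pleural and -3.19 to -1.66 in peritoneal cells.

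Markers of vessel cells moved with Lama4 in the sorted cells. Of 8 endothelial markers 6 were listed, and their sum was 6.0 to 25.8 TPM in pleural and 4.83 to 13.8 TPM in peritoneal against 23.0 to 35.9 TPM in subcutaneous cells. Of 6 mural cell markers only Mcam was listed, at 1.17 to 3.37 TPM in pleural and 0.973 to 3.79 TPM in peritoneal against 5.70 to 8.84 TPM in subcutaneous cells. Pleural library 5 had an endothelial sum of 25.8 TPM, within the subcutaneous range, and a Lama4 value of 0.656 TPM; it is also the library with lung epithelium markers. The part of these markers in the result was not tested.

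In whole tumours Lama4 differed in the same direction without passing the threshold. Pleural tumours had 4.10 TPM at the lowest, 6.84 TPM at the median and 19.2 TPM at the highest, the last being tumour 3. Peritoneal tumours had 7.02, 9.02, 8.02, 5.73 and 5.68 TPM, and subcutaneous tumours 10.2, 17.2, 11.8, 15.6 and 16.2 TPM. All peritoneal values, and all pleural values but that of tumour 3, were below the subcutaneous ones. The log2FC was -0.85 in pleural (SE 0.28, adjusted p = 0.0590) and -0.90 in peritoneal (SE 0.29, adjusted p = 0.0559), each against subcutaneous tumours. Without pleural tumour 3 they were -1.10 (adjusted p = 0.00355) and -0.90 (adjusted p = 0.00942), both called, and without pleural tumour 7 the peritoneal difference was called (adjusted p = 0.0470). Both were called under median-of-ratios scaling (adjusted p = 0.0471 in pleural and 0.0453 in peritoneal) and quantile normalization (0.0442 and 0.0388), and the peritoneal one in a fit of only those 2 sites (adjusted p = 0.00679). Endothelial markers summed to 73.9 to 167 TPM in pleural, 80.2 to 127 TPM in peritoneal and 106 to 156 TPM in subcutaneous tumours and mural cell markers to 27.5 to 193 TPM, 34.1 to 57.0 TPM and 54.3 to 108 TPM, pleural tumour 3 having the highest of both; their part in the result was not tested.

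**Figure D5:**
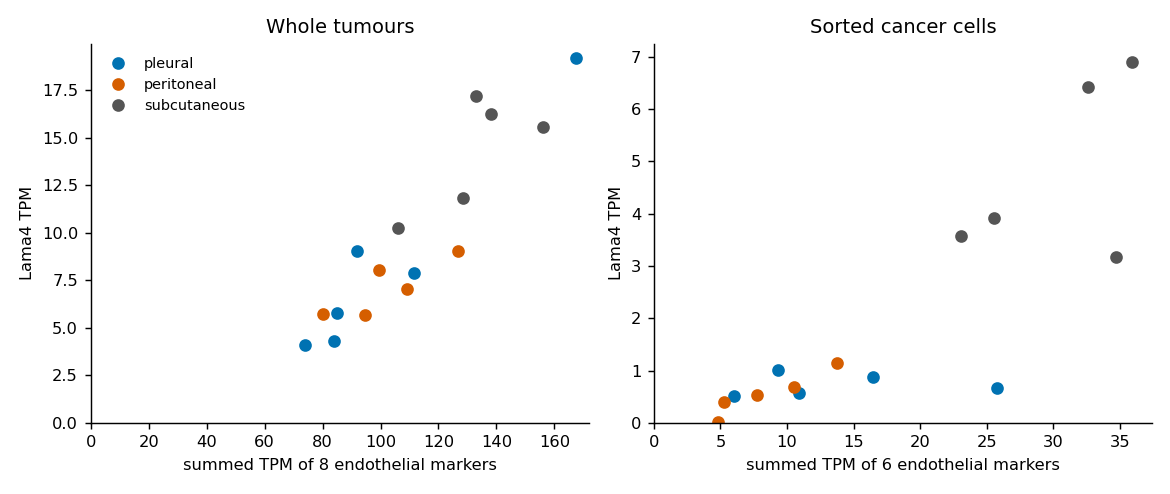
Lama4 TPM (y axis) against the summed TPM of endothelial markers (x axis) in each whole tumour (left, 8 markers) and each library of sorted cells (right, 6 markers listed), coloured by site. Subcutaneous sorted libraries have the highest Lama4, at 3.18 to 6.90 TPM, and 1 pleural library with a marker sum of 25.8 TPM, the one high in lung epithelium markers, has 0.656 TPM of Lama4.

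Lama5, the alpha chain of most epithelial and endothelial basement membranes, was the highest alpha chain of pleural and peritoneal sorted cells, at 3.19 ± 1.54 and 3.53 ± 0.956 TPM, while in subcutaneous cells Lama4, at 4.80 ± 1.73 TPM, exceeded Lama5 at 2.6 ± 1.08 TPM. The ratio of Lama4 to Lama5 in a library was 0.113 to 0.478 in pleural, 0.00238 to 0.388 in peritoneal and 0.847 to 2.89 in subcutaneous cells. Lama5 itself was called in no comparison of either table. Lama4 was the highest alpha chain of whole tumours at each site, with 8.38 ± 5.63 TPM in pleural, 7.10 ± 1.45 TPM in peritoneal and 14.2 ± 3.00 TPM in subcutaneous tumours.

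Lama2, the alpha chain of muscle and nerve basement membranes, was measured in whole tumours. It had 0.501, 1.07 and 5.20 TPM at the lowest, median and highest pleural tumour, 1.41, 1.41, 0.742, 0.871 and 1.58 TPM in peritoneal and 2.36, 2.79, 1.48, 2.70 and 2.78 TPM in subcutaneous tumours. Pleural tumour 3 alone exceeded every subcutaneous tumour. The log2FC of -0.53 in pleural (SE 0.28, adjusted p = 0.201) and -0.64 in peritoneal (SE 0.29, adjusted p = 0.147) against subcutaneous tumours became -0.81 (adjusted p = 0.00462) and -0.64 (adjusted p = 0.0154) without pleural tumour 3. Skeletal muscle markers, given above, were high in that tumour and in the subcutaneous ones. Pleural tumour 5, with the higher muscle marker sum of 638 TPM, had Lama2 at 1.16 TPM. The part of these markers was not tested.

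Lama1, known from embryonic and kidney basement membranes, and Lama3, the epithelial chain, stayed below 1 TPM in every whole tumour and did not pass the filter. The same was true of Lamc3. Lama1 had 0.0288 to 0.386 TPM in pleural, 0.159 to 0.719 TPM in peritoneal and 0.0148 to 0.0779 TPM in subcutaneous tumours. Every peritoneal value lay above every subcutaneous one, and without the filter the log2FC of Lama1 in peritoneal against subcutaneous tumours was 0.40 (SE 0.10, adjusted p = 0.0339), on a scale that understates changes at such levels.

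In whole tumours the summed beta chains were 96.3 to 118 TPM in pleural, 91.5 to 122 TPM in peritoneal and 81.2 to 96.5 TPM in subcutaneous tumours. The summed alpha chains had a median of 12.2 TPM in pleural and 13.9 TPM in peritoneal against 24.4 TPM in subcutaneous tumours, and ranged over 9.53 to 30.3 TPM, 13.3 to 15.1 TPM and 16.9 to 25.3 TPM. Lamb1, Lamb2 and Lamc1 were called in no comparison of either table. Lamb1 of every pleural tumour, at 70.1 to 76.4 TPM, lay above every subcutaneous tumour, at 61.5 to 68.6 TPM, with a log2FC of 0.13 (SE 0.06, adjusted p = 0.178). Lamb3, a chain of the epithelial anchoring laminin, did not pass the filter, at 0.0464 to 1.76 TPM.

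The number of calls moved with single libraries, and so did the share of all genes that passed. In whole tumours 2 members were called in pleural against subcutaneous tumours without subcutaneous tumour 2 or 3 or without pleural tumour 2 or 4. There 5 to 9.15% of all genes passed, against 12.8% with all libraries. In peritoneal against subcutaneous tumours 1 or 2 members were called without any of the 5 subcutaneous tumours or of peritoneal tumours 1, 2 and 3, and 7 without pleural tumour 3. The share of all genes was 5.99 to 9.54% in the former fits and 14.6% in the latter, against 12.2% with all libraries. In peritoneal against subcutaneous sorted cells 2 or 3 members were called without any of subcutaneous libraries 1, 3, 4 and 5, peritoneal libraries 2 and 5 and pleural library 3, and 1 without subcutaneous libraries 1 and 2 together, which was Lama4. Across the single omissions 6.1 to 10.5% of all genes passed, and 7.48% in the last fit, against 11.1% with all libraries. In pleural against peritoneal sorted cells 1 was called without peritoneal library 2 and 2 without pleural library 4. Shares of all genes were then 4.28% and 4.29%, against 9.96% with all libraries.

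Genes that work with integrins and laminins were counted from lists of basement membrane proteins, adhesion proteins, integrin ligands and hemidesmosome proteins. In pleural against subcutaneous whole tumours 3 of 17 basement membrane genes were higher and 1 was lower (median log2FC 0.11, against 0.07 over all genes tested), 5 of 33 adhesion genes were higher (median 0.09), and 2 of 18 ligands were higher and 3 lower (median -0.09). For comparison, 9.40% of all genes were called higher and 3.40% lower. The ligands Tnc and Postn had the largest changes (log2FC -4.59 and -3.78), followed by Kank1, which links talin to the cell cortex, at 6.41 ± 1.33 TPM in pleural against 3.32 ± 0.728 TPM in subcutaneous tumours (log2FC 0.78, SE 0.13, adjusted p = 0.00194), and by the collagen IV chain Col4a5, at 17.3 ± 2.31 against 11.0 ± 1.39 TPM (log2FC 0.61, SE 0.15, adjusted p = 0.0173). The others called, named after their values were seen, were Tinagl1, Agrn, Ptk2, Actn1, Fermt2, Lims1, Tgfb3 and Fn1, which were higher, and Col18a1 and Tgfb1, which were lower.

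In peritoneal against subcutaneous whole tumours 3 of 17 basement membrane genes were higher and 1 was lower (median 0.05, against 0.07 over all genes), 4 of 33 adhesion genes were higher (median 0.02), and 3 of 18 ligands were higher and 3 lower (median -0.09). Over all genes 8.52% were called higher and 3.64% lower. Tnc and Postn (log2FC -4.01 and -3.97) were followed by Col4a5, at 19.4 ± 5.94 TPM in peritoneal against 11.0 ± 1.39 TPM in subcutaneous tumours (log2FC 0.73, SE 0.15, adjusted p = 0.00878), and by Tinagl1, a matrix protein of basement membranes, at 38.0 ± 2.97 against 24.0 ± 2.20 TPM (log2FC 0.65, SE 0.09, adjusted p = 0.000316). The others, named after their values were seen, were Agrn, Kank1, Src, Actn1, Ptk2, Tgfb3, Fn1 and Mfge8, higher, and Col18a1 and Tgfb1, lower. No gene of these lists was called in pleural against peritoneal whole tumours, where 0.0531% of all genes passed. No fibroblast marker of 8 was called in whole tumours, where their median log2FC was -0.39 in pleural and -0.52 in peritoneal against subcutaneous tumours.

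In pleural against subcutaneous sorted cells 1 of 16 basement membrane genes was higher and 4 were lower (median -0.04, against -0.02 over all genes), and 5 of 14 ligands were lower (median -0.32), with no call among 31 adhesion genes. Over all genes 0.397% were called higher and 1.25% lower. Postn and Tnc (log2FC -5.29 and -4.77) were followed by Col15a1, a basement membrane collagen, at 5.12 ± 2.09 TPM in pleural against 41.2 ± 16.9 TPM in subcutaneous cells (log2FC -2.79, SE 0.42, adjusted p = 0.00138), and by the laminin-binding protein Nid2, at 0.735 ± 0.185 against 3.45 ± 1.46 TPM (log2FC -1.31, SE 0.18, adjusted p = 0.000519). The others, named after their values were seen, were Tinagl1, higher, and Col18a1, Sparc, Lrrc32, Icam2 and Spp1, lower. Nid2 passed the filter through its subcutaneous values, its pleural and peritoneal means being below 1 TPM. Of 8 fibroblast markers 4 were lower and none was higher (median log2FC -0.66), with sums of 2674 to 3422 TPM in pleural against 2970 to 5227 TPM in subcutaneous cells, and 1 of 6 endothelial markers was lower (median -1.09). Fibroblast sums of whole tumours, 2902 to 5268 TPM in pleural and 3952 to 5423 TPM in subcutaneous ones, overlapped those of sorted cells. The part of the fibroblast and endothelial markers in the changes was not tested.

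In peritoneal against subcutaneous sorted cells 2 of 16 basement membrane genes were higher and 6 lower (median -0.46, against -0.03 over all genes), 1 of 14 ligands was higher and 8 were lower (median -0.65), and 2 of 31 adhesion genes were higher and 1 was lower (median -0.16). Over all genes 4.75% were called higher and 6.33% lower. Postn and Tnc (log2FC -5.54 and -4.91) were followed by Col15a1, at 4.78 ± 4.30 TPM in peritoneal against 41.2 ± 16.9 TPM in subcutaneous cells (log2FC -3.10, SE 0.42, adjusted p = 0.000320), and by Nid2, at 0.412 ± 0.209 against 3.45 ± 1.46 TPM (log2FC -1.62, SE 0.18, adjusted p = 3.83e-05). Tinagl1 and Hspg2 were the higher basement membrane genes, and Mfge8 the higher ligand. The adhesion calls were Cd151 and Tns2, higher, and Ptk2b, lower, these genes being named after their values were seen. Of the fibroblast markers 4 of 8 were lower (median log2FC -0.83), with sums of 2186 to 3760 TPM in peritoneal against 2970 to 5227 TPM in subcutaneous cells, and of the endothelial markers 5 of 6 were lower (median -1.60). Fibroblast sums of peritoneal whole tumours, 3305 to 5557 TPM, overlapped those of peritoneal sorted cells. The part of both marker groups in these changes was not tested.

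In pleural against peritoneal sorted cells 4 of 31 adhesion genes were higher and 2 lower (median 0.12, against 0.00 over all genes), 1 of 14 ligands was higher (median 0.15) and 1 of 16 basement membrane genes was lower (median 0.29). Over all genes 4.45% were called higher and 5.51% lower. Thbs1, which encodes the matrix protein thrombospondin, was at 111 ± 28.8 TPM in pleural against 51.6 ± 25 TPM in peritoneal cells (log2FC 1.20, SE 0.31, adjusted p = 0.0266). Kank1 (log2FC 0.68, adjusted p = 0.0449) and the focal adhesion protein Zyx (log2FC 0.62, adjusted p = 0.0209) were higher and Tinagl1 (log2FC -0.58, adjusted p = 0.00323) was lower. The other adhesion calls, named after their values were seen, were Fermt2 and Cd81, higher, and Tns2 and Cd151, lower. Cd151, the tetraspanin that binds alpha3 and alpha6 integrins, was the only 1 of 3 hemidesmosome genes called, at 90.7 ± 7.47 TPM in pleural and 124 ± 9.07 TPM in peritoneal cells (log2FC -0.45, SE 0.08, adjusted p = 0.00451), with 86.9 ± 6.07 TPM in subcutaneous cells, against which the peritoneal log2FC was 0.51 (SE 0.08, adjusted p = 0.000663).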

How the data were processed

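The authors deposited TPM values per gene in 2 tables, whole tumours and sorted cells, made with kallisto on GRCm39 per the submitters' processing notes. Its version, the annotation, the strand setting and the way transcripts were summed and filtered were not given in the sources used here. Reads were single-end, per the labels' protocols. TPM keeps no read depth, and the precision that comes with depth is unknown. Whole tumour libraries held 14148 to 14880 genes at 1 TPM or more and sorted libraries 11557 to 12213. Every entry of the sorted table exceeds 1 TPM in at least 1 library, so low genes had been removed, and a gene that is not listed there may be low rather than absent. Calendar dates stand for symbols in 17 of its entries, which were left out.

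The test was limma 3.58.1 (R 4.3.3) on log2(TPM + 1), with empirical Bayes moderation that follows the intensity trend. All 3 sites of a table entered a single fit, without a replicate block. A gene was tested if 5 or more libraries had 1 TPM or more, and p-values were adjusted by Benjamini-Hochberg over all of them; an adjusted p below 0.05 is a call. The procedure was tested on simulated data. The labels name a mouse for each library, and most of the mouse names occur both for a whole tumour and for sorted cells of the same site. Beyond these shared names they do not say whether the animals were the same, so the whole tumours and sorted cells may not be independent. Replicate numbers follow those names, so peritoneal whole tumours 2, 3 and 4 are numbered 3, 4 and 5 in the table.

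Every called member is named, with the value in each library (for the 6 pleural whole tumours the lowest, median and highest), except for 1 that is not reported here. Of the partner lists up to 4 called genes per comparison are named by size of change; genes named beyond that are marked. The members, the lists and the markers were chosen with earlier results of these data known. Promoters are RefSeq's of GRCm38.p6, a different build from that of the tables, and serve only to show sequence; exon overlaps are GENCODE's of GRCm38, in which 12 of the 37 members overlap an exon of another gene. The alternatives tried were no filter, a filter at 5 TPM, a pseudocount of 0.1, median-of-ratios scaling, quantile normalization, a fit of only the 2 sites compared, the replicate number as a block, robust empirical Bayes, leaving out each library, and leaving out both pleural tumours 3 and 5, both subcutaneous sorted libraries 1 and 2, or both peritoneal sorted libraries 2 and 5. A fit of Itga9 without a filter and without subcutaneous sorted libraries 1 and 2 was chosen after seeing the data.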

Additional observations from a re-analysis of the deposited data

Results flagged for a closer look

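Of 141 groups of 5 or 6 libraries examined, 8 held a library far from the others, and chance alone flags about 1 in 20 groups. Among pleural whole tumours replicate 3 had Itga5 at 69.0 TPM, against 48.4 to 51.9 TPM in the others, and Lama2 at 5.20 TPM, against 0.501 to 1.16 TPM. Among subcutaneous whole tumours replicate 1 had Itga3 at 24.1 TPM, against 25.9 to 26.6 TPM, and Itgb7 at 34.6 TPM, against 48.7 to 55.9 TPM. Replicate 3 had Lama2 at 1.48 TPM, against 2.36 to 2.79 TPM, and replicate 5 had Itgb1 at 274.8 TPM, against 267 to 269 TPM. In sorted cells Lamb2 was 7.06 TPM in peritoneal replicate 5, against 16 to 19.4 TPM in the others, and 24.3 TPM in subcutaneous replicate 1, against 16.9 to 18.5 TPM. Pleural whole tumour 3 and subcutaneous sorted library 1 are also among the libraries with high muscle and leukocyte markers. None of these values was left out of the results given above.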

How the results depend on the processing

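No log2 fold change of a called member changed direction under any alternative. Itga3 in both whole tumour comparisons with subcutaneous tumours, and Lama4 in both comparisons of sorted cells with subcutaneous cells, passed in every alternative that kept them. With the replicate number as a block (replicate block), 2 members passed in pleural and 2 in peritoneal against subcutaneous whole tumours, in place of 4 each, and 2, 5 and 4 in the sorted comparisons. Shares of all genes were then 5.64% and 4.36% in whole tumours and 1.51%, 11.2% and 9.39% in sorted cells. The labels name different mice at each site. Deviations of same-numbered libraries from their site means correlated at -0.22 to 0.26 in pleural against subcutaneous whole tumours. In peritoneal against subcutaneous sorted cells they correlated at -0.30 to 0.35. No comparison had every pair above 0.1, but so few pairs cannot exclude a shared effect of the number. Without a filter 2 members passed in each whole tumour comparison with subcutaneous tumours, where 3.12% (pleural) and 3.2% (peritoneal) of all genes passed. With a filter at 5 TPM 2 passed in pleural against subcutaneous whole tumours, and 1 and 3 in pleural and peritoneal against subcutaneous sorted cells, since fewer genes were tested. Among all genes 15.1%, 1.1% and 11.2% passed in these comparisons. Fits of only the 2 sites gave 2 and 7 in pleural and peritoneal against subcutaneous whole tumours and 2 in pleural against peritoneal sorted cells. Their shares of all genes were 9.35%, 12.5% and 5.59%, and the cause was not tested. Leaving out both pleural tumours 3 and 5 gave 7 in peritoneal against subcutaneous whole tumours, where 15.4% of all genes passed. Without subcutaneous sorted libraries 1 and 2, 1 member passed in pleural and 1 in peritoneal against subcutaneous cells, where 0.571% and 7.48% of all genes passed. Without peritoneal libraries 2 and 5, 2 passed in peritoneal against subcutaneous and 1 in pleural against peritoneal cells, where 6.01% and 3.93% of all genes passed. Leaving out 1 library at a time gave 2 to 6, 1 to 7 and 0 calls in whole tumours (pleural against subcutaneous, peritoneal against subcutaneous, pleural against peritoneal) and 2, 2 to 5 and 1 to 4 in sorted cells. Over those fits the share of all genes was 5 to 14.9%, 5.99 to 14.6% and at most 0.221% in whole tumours. For sorted cells it was 0.959 to 2.17%, 6.1 to 13% and 4.28 to 11.5%. Of all genes called, 73.4% were higher in pleural and 70.1% in peritoneal than in subcutaneous whole tumours, against 46.0% and 45.5% under median-of-ratios scaling; in peritoneal against subcutaneous sorted cells 42.9% were higher, against 61.3% under quantile normalization. Depth is unknown, and members near 1 TPM, such as Itgb8, Lama4 and Itga9 in sorted cells, rest on low values.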
